A study of Mus musculus with 12 samples.

Results

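The imprinted growth genes followed here are 10 genes known for parental imprinting and for control of growth: H19, Igf2, Mest, Peg3, Plagl1, Dlk1, Meg3, Cdkn1c, Grb10 and Ndn. They were chosen by name, with earlier results of these data known. All 10 were found among the 38887 gene identifiers of the count table. Transcripts came from Ly6G+ spleen cells of mice aged 2 days, 7 days, 14 days and 6 weeks, with 3 libraries per age and 12 in all. Age is the one factor in which the labelled groups differ. The labels give no strain, genotype, treatment, sex or number of mice per library, and do not say whether replicates are separate mice. P-values therefore rest on a spread between libraries that may be technical only. The labels call the cells of each age PMN-MDSC, a term for neutrophil-like cells that restrain T cells, and the series title asks what regulates a suppressive activity that neutrophils hold for a time in newborns.

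Library totals ran from 34495767 to 38795913 counts. All 12 neutrophil markers examined, among them Ly6g, the gene of the sort marker, had counts in every library, and their sum lay between 73600 and 110000 CPM (counts per 1e6 counts, scaled to the normalized library size). Replicate 2 of 2 days stood apart from its partners, with Spearman correlations across genes of 0.971 and 0.98 against 0.992 for the other pair. Replicate 1 of 14 days did so less, with 0.986 to both partners against 0.994. Transcripts of 4 Y-linked genes summed to 44.5 to 109 CPM in the 2-day and 7-day libraries and to at most 0.0273 CPM in those of 14 days and 6 weeks, so sex and age cannot be told apart in comparisons across that divide. In bulk libraries, fewer cells of a type and less RNA per cell cannot be told apart either.

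In genomic imprinting, marks laid down in egg or sperm leave a gene active mainly on the copy from a single parent. Igf2, Mest, Peg3, Plagl1, Dlk1 and Ndn are expressed from the paternal copy in mice, and H19, Meg3, Cdkn1c and, outside the brain, Grb10 from the maternal copy. Many of these genes are active in fetal tissues and decline as mice grow, and in embryonic mouse tissues several of them form a co-expressed network around the zinc-finger factor Plagl1. The counts do not separate the parental copies, so nothing below bears on imprinting itself.

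Promoter windows from RefSeq on the GRCm38.p6 assembly, reaching from 250 bases before to 50 bases after a start, were at hand for 8 of the 10 genes, with 15 windows in all. Those of Mest, Plagl1, Grb10 and Dlk1 are shown because these genes had the different time courses described below. Mest fell but had 67 counts left over the 3 libraries of 6 weeks, and Plagl1 fell by 7 days. Grb10 had its highest mean at 7 days, and Dlk1 the smallest share of the 2-day level left at 7 days among the 10. Capitals mark TGCCGC or its reverse complement, the letters bound by ZFP57, a protein that protects imprints in mouse embryos.
Mest promoter: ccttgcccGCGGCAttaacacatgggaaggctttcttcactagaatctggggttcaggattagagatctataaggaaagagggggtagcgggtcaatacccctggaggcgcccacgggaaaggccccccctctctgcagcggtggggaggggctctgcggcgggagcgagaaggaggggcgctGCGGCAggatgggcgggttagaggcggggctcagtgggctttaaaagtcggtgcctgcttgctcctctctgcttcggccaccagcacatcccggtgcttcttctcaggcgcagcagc
Plagl1 promoter: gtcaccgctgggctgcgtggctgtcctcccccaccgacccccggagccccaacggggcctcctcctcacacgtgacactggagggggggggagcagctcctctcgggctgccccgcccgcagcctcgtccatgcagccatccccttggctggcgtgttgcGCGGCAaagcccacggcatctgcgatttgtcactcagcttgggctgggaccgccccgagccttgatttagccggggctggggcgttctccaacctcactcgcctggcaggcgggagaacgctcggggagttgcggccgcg
Grb10 promoter: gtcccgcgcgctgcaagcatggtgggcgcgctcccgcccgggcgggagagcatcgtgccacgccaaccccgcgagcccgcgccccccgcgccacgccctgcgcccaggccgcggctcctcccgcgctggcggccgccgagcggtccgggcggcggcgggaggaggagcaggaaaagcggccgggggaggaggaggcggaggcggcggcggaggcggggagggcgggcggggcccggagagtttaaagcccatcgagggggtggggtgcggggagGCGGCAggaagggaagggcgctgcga
Dlk1 promoter: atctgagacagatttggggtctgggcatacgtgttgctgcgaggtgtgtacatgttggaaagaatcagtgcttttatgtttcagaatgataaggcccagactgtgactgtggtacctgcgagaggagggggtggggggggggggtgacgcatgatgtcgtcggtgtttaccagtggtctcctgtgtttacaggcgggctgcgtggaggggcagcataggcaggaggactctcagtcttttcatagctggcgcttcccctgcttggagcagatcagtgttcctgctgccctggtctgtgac
The windows lie at chr6:30737800-30738099 (plus strand), chr10:13090582-13090881 (plus strand), chr11:12037371-12037670 (minus strand) and chr12:109452573-109452872 (plus strand). Each is written in the direction of transcription. The letters were found 2 times in the window of Mest, 1 time each in those of Plagl1 and Grb10 and 0 times in that of Dlk1. For each gene the window shown is the one with the most matches, so these counts depend on that choice. Another window of Mest and another of Grb10 held 0 matches. Over all 15 windows, of which 2 of Mest overlap, 6 held them on either strand, against 11.6% of 32851 windows of this length. The GC box GGGCGG was in 8 of the 15 windows, against 35.7% of all, and the TATA box TATAAA in 1 window, that of Meg3, against 13.6%. No match of one of these motifs overlapped a match of another in the 4 windows shown. The member windows held a median of 13 CpG, ranging from 1 to 45, and all windows a median of 7. Counts are per gene, so they do not show which start was used.

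H19 also carries the microRNA miR-675 in its exons, within chromosome 7 on the minus strand. It is shown because H19 had the highest level of the 10 genes at 2 days, and because miR-675 is reported in mouse placenta to restrain Igf1r, measured below. Capitals mark the seed, bases 2 to 8.
mmu-miR-675-5p: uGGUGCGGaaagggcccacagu
mmu-miR-675-3p: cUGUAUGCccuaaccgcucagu
The 2 mature forms come from chr7:142577112-142577133 and chr7:142577078-142577099 (GRCm38.p6, RefSeq). Their seeds differ. These polyadenylated RNA libraries do not measure mature microRNAs.

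All 10 genes were higher at 2 days than at 6 weeks, and in a joint test of the 4 ages 10 of 10 were called, where 69.2% of all genes were. Their courses between those ages are described in turn. At 7 days the mean CPM of H19, Igf2 and Dlk1 was 7.42% to 9.74% of that at 2 days. It was 26.4% to 42.5% for Plagl1, Mest, Cdkn1c, Meg3 and Peg3, and 56.2% for Ndn. Grb10 had its highest mean at 7 days and was low from 14 days. Mest, Cdkn1c and Meg3 kept 67, 68 and 53 counts over the 3 libraries of 6 weeks, and Meg3 had its lowest mean at 14 days.

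**Figure D1:**
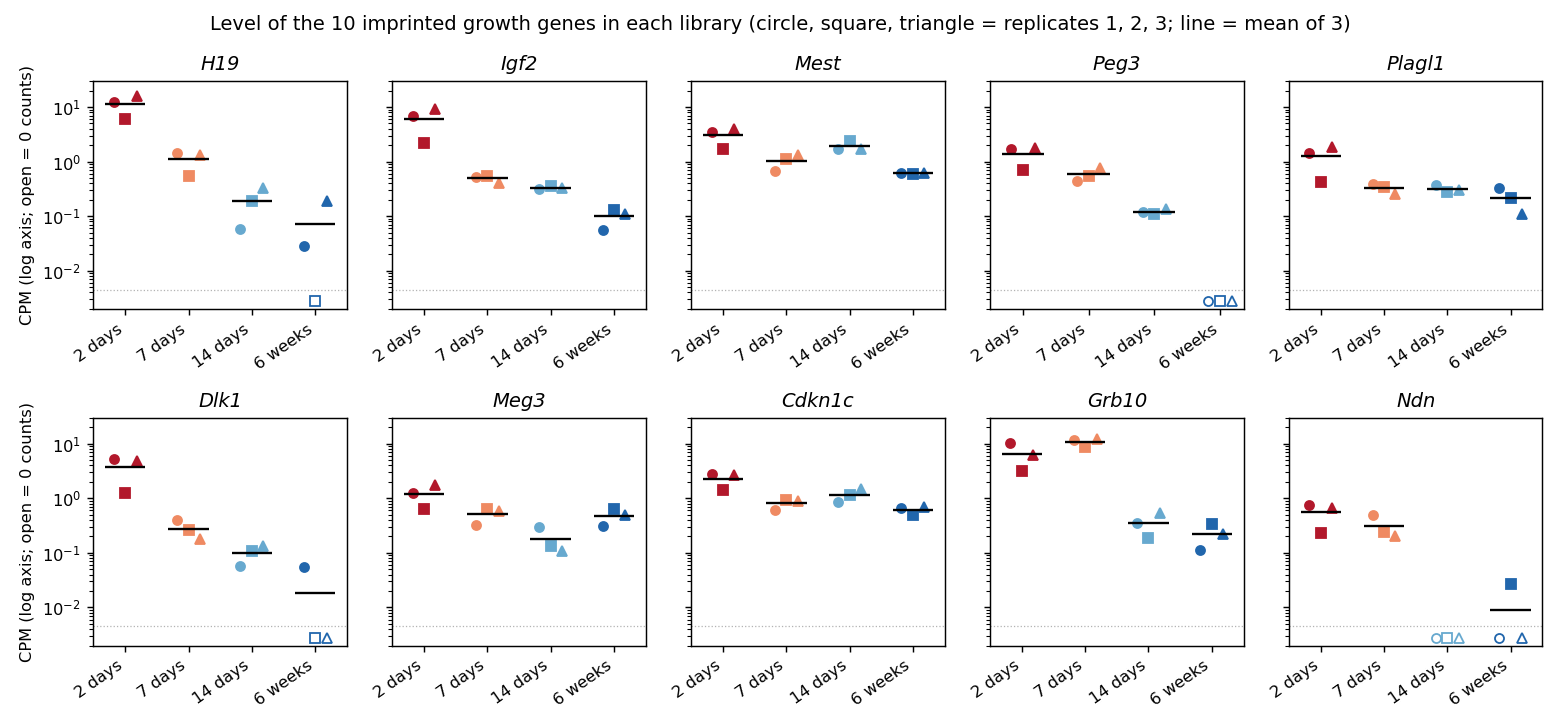
Each panel shows 1 gene, with age on the horizontal axis and CPM on a logarithmic vertical axis; symbols are the 3 libraries of an age, lines their means, and open symbols below the dotted line libraries with 0 counts. The square of 2 days (replicate 2) is the lowest 2-day value in each panel, and Grb10 is the gene whose mean is higher at 7 days (10.9 CPM) than at 2 days (6.54 CPM).

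Igf2 encodes insulin-like growth factor 2, the main fetal growth factor of this hormone family. It spans chromosome 7 from 142650766 to 142666816 on the minus strand of GRCm38. It was at 6.82, 2.24 and 9.04 CPM at 2 days, 0.515, 0.556 and 0.402 CPM at 7 days, 0.321, 0.354 and 0.324 CPM at 14 days and 0.0558, 0.133 and 0.109 CPM at 6 weeks. The libraries of the 4 ages did not overlap, and the largest drop lay between 2 and 7 days. At 7 days the mean was 8.14% of the mean at 2 days (log2 fold change -3.61, SE 0.45, adjusted p = 4.87e-05). The next step, 14 days over 7 days, did not pass the test (log2 fold change -0.55, adjusted p = 0.378). In the annotation 3596 exonic bases of Igf2 are shared with Gm49394 on the same strand and 98 with Igf2os on the other, so reads there could be divided between genes.

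H19 is a long non-coding RNA (chromosome 7, 142575529 to 142578143, minus strand) that shares enhancers with Igf2 and is expressed from the other parental copy. Its levels were 12.6, 5.93 and 15.7 CPM at 2 days, 1.45, 0.556 and 1.33 CPM at 7 days, 0.0584, 0.191 and 0.324 CPM at 14 days and 0.0279, 0 and 0.191 CPM at 6 weeks. No overlap was seen among the libraries of 2, 7 and 14 days, while those of 14 days overlapped those of 6 weeks. H19 fell in both early steps, by 3.35 on the log2 scale at 7 days relative to 2 days (SE 0.54, adjusted p = 0.000345) and by 2.51 at 14 days relative to 7 days (SE 0.67, adjusted p = 0.00927). At 14 days and 6 weeks it rested on 21 and 8 counts over 3 libraries.

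Dlk1 encodes a membrane protein related to Notch ligands that holds progenitors of several tissues undifferentiated, and Meg3 is a long non-coding RNA of the same imprinted region. Dlk1 (chromosome 12, 109452823 to 109463336, plus strand) was at 5.21, 1.25 and 4.77 CPM at 2 days, 0.392, 0.265 and 0.176 CPM at 7 days, 0.0584, 0.109 and 0.135 CPM at 14 days and 0.0558, 0 and 0 CPM at 6 weeks. The ages did not overlap, and at 6 weeks 2 counts remained in 1 library. The lowest 14-day library also had 2 counts, so scaling alone set these 2 ages apart. They were not called different (log2 fold change of 14 days over 6 weeks 2.28, SE 1.16, adjusted p = 0.195). The level at 7 days was 7.42% of that at 2 days (log2 fold change -3.74, SE 0.59, adjusted p = 0.000275). Meg3 (chromosome 12, 109541001 to 109571726, plus strand) was at 1.25, 0.626 and 1.75 CPM at 2 days, 0.319, 0.635 and 0.578 CPM at 7 days, 0.292, 0.136 and 0.108 CPM at 14 days and 0.307, 0.636 and 0.492 CPM at 6 weeks. Its 7-day and 6-week libraries covered nearly the same range, and those of 14 days lay below both. Meg3 fell at 14 days relative to 7 days (log2 fold change -1.51, SE 0.54, adjusted p = 0.0362), a call lost in 6 of 20 alternatives, where adjusted p ranged from 0.00632 to 0.121. Without 7-day replicates 2 or 3 the value was -1.32 or -1.44, and without 14-day replicates 2 or 3 it was -1.38 or -1.25, none of them called. The 14-day and 6-week levels were not called different (14 days over 6 weeks -1.42, adjusted p = 0.0878).

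Grb10 and Cdkn1c restrain growth. Grb10 encodes an adaptor that dampens signalling of the insulin and IGF1 receptors (chromosome 11, 11930508 to 12038683, minus strand). It was at 10.2, 3.13 and 6.33 CPM at 2 days, 11.8, 8.76 and 12.1 CPM at 7 days, 0.35, 0.191 and 0.54 CPM at 14 days and 0.112, 0.344 and 0.219 CPM at 6 weeks. Libraries of 2 and 7 days overlapped, and the step between them was not called (7 days over 2 days 0.73, SE 0.38, adjusted p = 0.128). Without 2-day replicate 1 it was called, at 1.25, and also with limma-voom, at 0.84. At 14 days Grb10 was 30.2-fold lower than at 7 days (log2 fold change -4.9, SE 0.48, adjusted p = 1.41e-05), with no overlap of the libraries.

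Cdkn1c encodes p57, an inhibitor of cyclin-dependent kinases that halts the cell cycle (chromosome 7, 143458339 to 143461050, minus strand). Its levels were 2.76, 1.45 and 2.63 CPM at 2 days, 0.613, 0.927 and 0.905 CPM at 7 days, 0.847, 1.14 and 1.51 CPM at 14 days and 0.669, 0.503 and 0.683 CPM at 6 weeks. It fell at 7 days relative to 2 days (log2 fold change -1.49, SE 0.33, adjusted p = 0.00265). The means at 7 and 14 days, 0.815 ± 0.175 and 1.17 ± 0.333 CPM (SD, n = 3 each), were not called different.

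Plagl1 and Peg3 encode zinc-finger proteins. Plagl1, a transcription factor that slows proliferation (chromosome 10, 13060504 to 13131694, plus strand), was at 1.46, 0.428 and 1.86 CPM at 2 days, 0.392, 0.344 and 0.252 CPM at 7 days, 0.38, 0.272 and 0.297 CPM at 14 days and 0.335, 0.212 and 0.109 CPM at 6 weeks. From 7 days on the libraries of all ages overlapped, and only comparisons with 2 days were called (7 days over 2 days -1.92, SE 0.51, adjusted p = 0.00851). Without 2-day replicate 3 that call was lost, with a value of -1.48.

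Peg3 (chromosome 7, 6703892 to 6730431, minus strand) was at 1.74, 0.692 and 1.75 CPM at 2 days, 0.441, 0.556 and 0.78 CPM at 7 days, 0.117, 0.109 and 0.135 CPM at 14 days and 0, 0 and 0 CPM at 6 weeks. It went down in steps: 14 days lay 4.93-fold below 7 days (log2 fold change -2.27, SE 0.5, adjusted p = 0.00442). Its step from 2 to 7 days (log2 fold change -1.24, adjusted p = 0.0311) was lost in 8 of 20 alternatives. Among these were the fits without 2-day replicates 1 (-1) or 3 (-0.99), 7-day replicates 1 (-1.02) or 2 (-1.19) and 14-day replicate 2 (-1.19).

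Mest encodes an enzyme of the hydrolase fold linked to fat cell growth, and Ndn encodes necdin, which restrains proliferation of neurons and of blood stem cells in mice. Mest (chromosome 6, 30723547 to 30748465, plus strand) was at 3.5, 1.68 and 4 CPM at 2 days, 0.686, 1.14 and 1.31 CPM at 7 days, 1.72, 2.37 and 1.67 CPM at 14 days and 0.613, 0.583 and 0.629 CPM at 6 weeks. Its 14-day libraries lay above those of both 7 days and 6 weeks. The rise over 6 weeks was called (log2 fold change 1.65, SE 0.36, adjusted p = 0.00725), and that over 7 days was 0.88 with adjusted p = 0.0512 (0.86, and called, without 2-day replicate 2). Mest shares 912 exonic bases with Copg2 on the opposite strand, which had 28596 counts over the 12 libraries, and without strand information reads there cannot be assigned. Copg2 averaged 61.9, 50.4, 81 and 67.2 CPM over the 4 ages. It was called higher at 14 days than at 7 days (0.69, adjusted p = 8e-04) but not than at 6 weeks (0.27, adjusted p = 0.147). Whether its reads entered the Mest counts was not tested. Ndn (chromosome 7, 62346569 to 62350262, plus strand) was at 0.766, 0.231 and 0.658 CPM at 2 days, 0.49, 0.238 and 0.201 CPM at 7 days, 0, 0 and 0 CPM at 14 days and 0, 0.0265 and 0 CPM at 6 weeks. The 2 younger ages overlapped and both lay above the older ones, where 1 count was found in 6 libraries. At 14 days Ndn was at least 11.2-fold lower than at 7 days, against a floor of 3 counts over the age (adjusted p = 0.0017).

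The comparison of 2 days with 6 weeks sets newborn against grown mice. Of the 10 genes, 10 were higher at 2 days and 0 lower, where 40.4% of all 15494 genes tested were called in either direction, 20.7% higher and 19.7% lower. Only 3 of the 10 reached the filter cutoff in every 6-week library. The others passed through younger ages, where they are high, so their direction is not independent of the filter. The median log2 fold change of the 10 was 5.17, also with Peg3 set to its lower bound, and that of all genes 0.04. Libraries of the 2 ages did not overlap for 9 of the 10, with Meg3 the exception, where 24% of all genes had 2-day libraries wholly above those of 6 weeks and 23.3% wholly below. Means were 11.4 ± 5 CPM at 2 days and 0.0731 ± 0.103 CPM at 6 weeks for H19, and 6.04 ± 3.47 and 0.0992 ± 0.0394 CPM in the same order for Igf2 (SD, n = 3 each). H19 was 156-fold higher (SE 0.75 on the log2 scale, adjusted p = 1.29e-05), Igf2 60.8-fold (SE 0.54, adjusted p = 5.19e-06) and Grb10 29.1-fold (SE 0.51, adjusted p = 1.41e-05). Peg3 was at least 51.2-fold higher, against a floor of 3 counts over the 6-week libraries.

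Dlk1 and Ndn had 416 and 61 counts at 2 days against 2 and 1 counts at 6 weeks. Their ratios were 216 (95% counting interval 59.5 to 1790) and 63.4 (11 to 2550), from an exact binomial interval that covers counting error only. Smaller rises were those of Plagl1 (5.71-fold, adjusted p = 0.0029), Mest (5.03-fold, adjusted p = 0.000287), Cdkn1c (3.69-fold, adjusted p = 0.000836) and Meg3 (2.53-fold, log2 SE 0.47, adjusted p = 0.0389). The call for Meg3 was lost in 9 of 20 alternatives, with adjusted p between 0.00356 and 0.191. It was lost without 2-day replicates 1 (1.3) or 3 (0.96), 6-week replicates 1 (1.1) or 3 (1.35), 7-day replicate 3 (1.33) or 14-day replicate 2 (1.33). The size of the rise of H19, Dlk1 and Ndn rested on single 6-week libraries: the log2 fold change of H19 was 7.23 with all libraries and 9.39 without 6-week replicate 3, that of Dlk1 7.45 and 10.12 without 6-week replicate 1, and that of Ndn 5.49 and 7.36 without 6-week replicate 2.

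At 7 days, 6 of the 10 genes were still higher than at 6 weeks and 0 were lower, where 51% of all genes were called, 24.5% higher and 26.6% lower. The libraries of 7 of the 10 lay wholly above those of 6 weeks and of 0 wholly below, against 34.3% and 35.6% of all genes. The called genes were H19 (15.2-fold), Igf2 (4.95-fold), Grb10 (48.3-fold), Peg3 (at least 21.8-fold), Dlk1 (ratio 15.4, counting interval 3.93 to 132) and Ndn (ratio 34.5, counting interval 5.81 to 1400). The call for Igf2 was lost with limma-voom. Mest, Plagl1, Cdkn1c and Meg3 had log2 fold changes of 0.78, 0.59, 0.40 and 0.09 and were not called; Mest was called without 2-day replicate 2 (0.8) or 7-day replicate 1 (1.04). Scaling by library totals moved the median of all genes at 7 days over 6 weeks to 0.16, and the same number of members was called. H19 and Dlk1 again rested on single 6-week libraries, with log2 fold changes of 3.88 and 3.71 that became 6.04 without replicate 3 and 6.38 without replicate 1, and Ndn (4.66) became 6.53 without replicate 2.

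At 14 days, 2 of the 10 were higher than at 6 weeks and 0 lower, where 18.9% of all genes were called, 9.68% higher and 9.26% lower. The libraries of 5 of the 10 lay wholly above and of 1, Meg3, wholly below those of 6 weeks, against 22.2% and 21.9% of all genes. Dlk1 is among the 5 through 0.0584 against 0.0558 CPM, which were 2 counts each. The called genes were Mest (3.16-fold, adjusted p = 0.00725) and Peg3, with 13 counts over 3 libraries against 0 (at least 4.41-fold, adjusted p = 0.0101). Without 2-day replicate 2, which enters the shared estimate of the spread, 5 were called: Igf2 (1.72) and Cdkn1c (0.93) as higher and Meg3 (-1.41) as lower joined them. Calls over all genes also rose in that fit, to 4685 of 15967 tested, from 2934 of 15494 with all libraries.

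The steps between the young ages show when the levels changed. At 7 days relative to 2 days, 8 of the 10 were lower and 0 higher, where 48.7% of all genes were called, 22.9% higher and 25.8% lower. The count was 5 without 2-day replicate 3, when Peg3, Plagl1 and Meg3 were not called. The libraries of 6 of the 10 lay wholly below those of 2 days and of 0 wholly above, against 27.7% and 27.4% of all genes. The mean at 7 days was 7.42% to 9.74% of that at 2 days for Dlk1, Igf2 and H19, 26.4% for Plagl1 and 34.1% to 42.5% for Mest, Cdkn1c, Meg3 and Peg3. Ndn, at 56.2%, was not called (log2 fold change -0.84, adjusted p = 0.263), nor was Grb10. The call for Meg3 (-1.25, adjusted p = 0.0427) was lost in 12 of 20 alternatives, with values of -1.53 to -0.84. Whether the falls of these genes differ from each other was not tested. At 14 days relative to 7 days, 5 were lower and 0 higher, where 45.9% of all genes were called, 24% higher and 21.9% lower: H19, Peg3, Meg3, Grb10 and Ndn. Dlk1 (-1.42) joined them without 2-day replicate 2. The libraries of 7 of the 10 lay wholly below those of 7 days and of 1, Mest, wholly above, against 31.7% and 32.2% of all genes. The fall of H19 (-2.51) was -3.11 without 14-day replicate 3. Comparisons that share an age share its libraries, so their values are not independent.

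**Figure D2:**
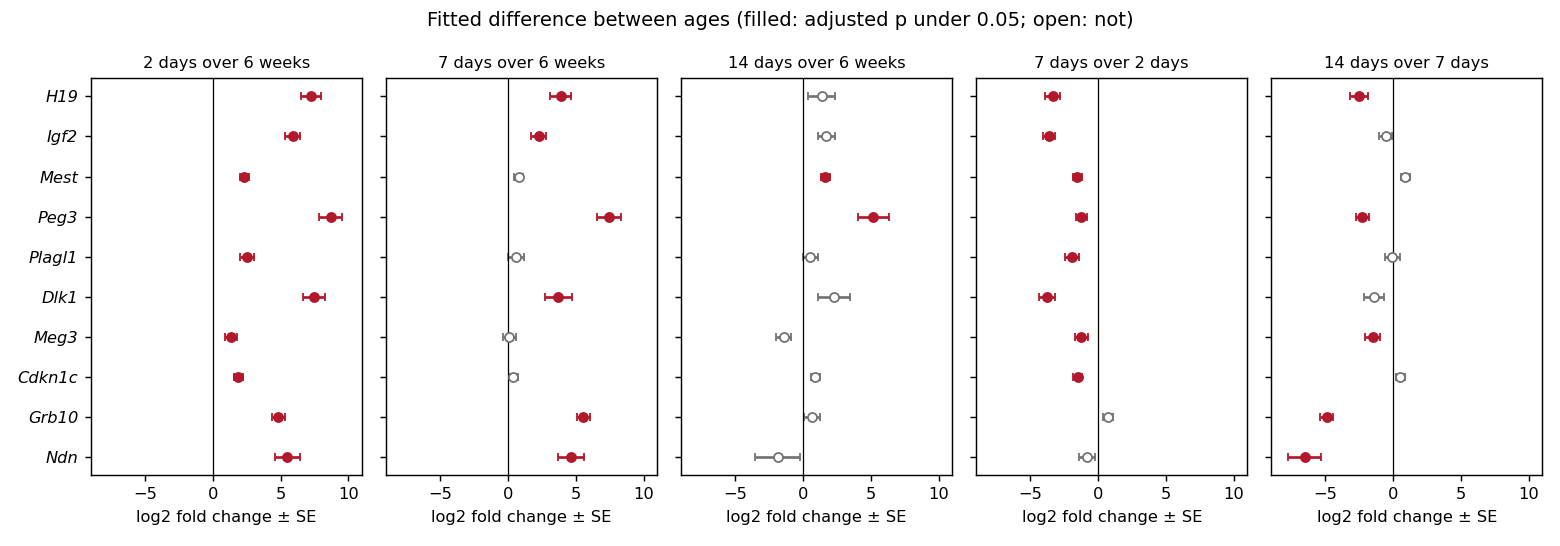
Each panel gives 1 pair of ages, with the fitted log2 fold change on the horizontal axis and the 10 genes down the page; bars are 1 SE and filled points passed an adjusted p of 0.05. All 10 points are filled for 2 days over 6 weeks, 8 for 7 days over 2 days, and Grb10 and Ndn lie farthest left for 14 days over 7 days (-4.9 and -6.53, the last a fit to 0 counts at 14 days).

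Levels were compared between genes as CPM per kilobase of exon. At 2 days H19 led with 4.64 CPM per kilobase, and its libraries (2.41 to 6.38) lay above those of every other member. Cdkn1c, Igf2, Mest, Grb10 and Dlk1 followed at 1.12, 1.05, 0.776, 0.72 and 0.662, each overlapping its neighbour, and Plagl1, Ndn, Peg3 and Meg3 came last at 0.16 to 0.0669, also overlapping. At 7 days Grb10 led with 1.2 CPM per kilobase and did not overlap the next gene, H19, at 0.452. At 14 days and 6 weeks Cdkn1c and Mest were on top: 0.572 and 0.487 CPM per kilobase at 14 days, and 0.303 and 0.154 at 6 weeks. At those ages both lay above all libraries of every other member. Exon lengths are unions over annotated transcripts, which lowers the value of genes with many alternative exons such as Meg3 (18089 bases).

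Within 2 days the members varied together. In replicate 2 they stood at 25.1% (Dlk1) to 53.8% (Cdkn1c) of the mean of replicates 1 and 3, with a median of 38.8%, and 9 of 10 were below 50%. The median of all genes tested was 96.9%, and 11.7% of them were below 50%. Markers of other cell types were also low in this library: medians were 28.3% for 14 stromal markers tested, 39.5% for 12 erythroid, 42.6% for 9 endothelial, 60.2% for 9 mast cell and 63.4% for 10 stem and progenitor markers. Neutrophil markers were at a median of 150% and monocyte and macrophage markers at 109%. Without this library the log2 fold changes of 2 days over 6 weeks were larger for all 10 genes, for example 6.27 for Igf2 and 1.65 for Meg3, and all 10 were called. In that fit 8170 of 15967 genes tested were called, against 6263 of 15494 with all libraries.

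**Figure D3:**
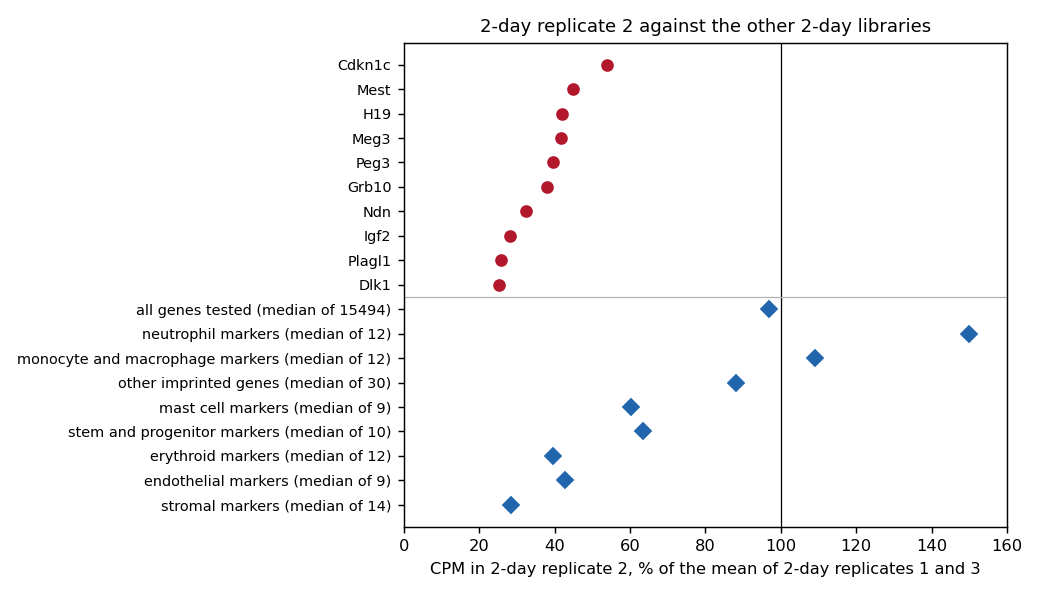
The level in 2-day replicate 2 is given as a percentage of the mean of 2-day replicates 1 and 3; circles are the 10 genes and diamonds the medians of gene lists with the number of tested genes. The 10 genes lie between 25.1% and 53.8%, beside the stromal, erythroid and endothelial lists, and neutrophil markers lie at 150%.

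Markers of other cells changed with age in several patterns. The 15 stromal markers summed to 66.7 to 135 CPM at 2 days, 50.7 to 60.5 at 7 days, 40.3 to 46 at 14 days and 57.2 to 64.4 at 6 weeks, where Col6a2 and Lum had 0 counts. At 2 days relative to 6 weeks the median log2 fold change of the 14 tested was 3.22. Of the 14, 11 were higher and 1 lower, against 20.7% and 19.7% of all genes. Among them were the collagen genes Col3a1 (7.32, SE 0.76) and Col1a2 (6.28, SE 0.71), and Sparc, a matrix protein gene (5.18, SE 0.54). At 7 days relative to 2 days 9 of 14 were lower and 0 higher, against 25.8% and 22.9% of all genes.

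The 12 erythroid markers summed to 342 to 670 CPM at 2 days, 2600 to 4450 at 7 days, 55.2 to 253 at 14 days and 127 to 440 at 6 weeks. At 14 days relative to 7 days 12 of 12 were lower, where 21.9% of all genes were, and none was at 0 at any age. The 11 stem and progenitor markers had sums of 201 to 423, 138 to 163, 89.1 to 122 and 51.9 to 76.3 CPM over the same ages. At 2 days Gata2 and Kit had the highest means, 125 and 103 CPM. The fall was not shared by the whole list. At 7 days relative to 2 days 4 of 10 tested were lower and 2, Hlf and Myb, higher, against 25.8% and 22.9% of all genes. Gata2 and Kit were among the lower genes (-3.1 and -2.05), while the median log2 fold change of the 10 was -0.04. The list does not show which cells the Gata2 and Kit transcripts came from.

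In 3 lists a single gene, named here after its values were seen, carried the sum, for the mast cell list only from 7 days on. At 2 days the mast cell marker Tpsb2 averaged 1403 CPM, above the level of Hdc given next. The 9 mast cell markers summed to 3840 to 6280, 587 to 799, 992 to 1070 and 1400 to 1610 CPM, of which Hdc, the histamine-forming enzyme gene, had 1366, 599, 1018 and 1476 CPM on average. Of the 9, 9 were lower at 7 days than at 2 days, where 25.8% of all genes were. At 14 days relative to 7 days 8 were lower and 1, Hdc, higher, against 21.9% and 24% of all genes. The median log2 fold change of the 9 in that step was -5.63. The mast cell protease genes Cpa3 and Mcpt4 averaged 693 and 1025 CPM at 2 days, 13.5 and 21.2 at 7 days, 0.752 and 0.117 at 14 days and 0.762 and 0.109 at 6 weeks. Tpsab1 and Mrgprb1 had 0 counts at 14 days and 6 weeks. The 10 endothelial markers summed to 39.3 to 73.8, 77.4 to 87.1, 43.6 to 60.5 and 84.3 to 89.9 CPM, of which Pecam1, an adhesion gene, had 35.6, 48.6, 37.2 and 70.6 CPM. At 2 days relative to 6 weeks 5 of 9 tested were higher (Cdh5, Kdr, Tek, Cldn5 and Egfl7, by 1.21 to 3.94 on the log2 scale) and 3 lower, Pecam1 among them. Of all genes 20.7% were higher and 19.7% lower. At 14 days relative to 7 days 6 of the 9 were lower and 1 higher, against 21.9% and 24% of all genes. The median log2 fold change of these 9 was -2.42. Of the 10 hepatocyte markers 3 could be tested, and Trf, the transferrin gene, carried the sum: it averaged 183 CPM in 2-day libraries and 741 CPM in 6-week libraries. The defining gene Alb had 49 counts at 2 days, 42 of them in replicate 2, 0 at 7 and 14 days and 1 at 6 weeks. The part of these cells in the levels of the imprinted genes was not tested.

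**Figure D4:**
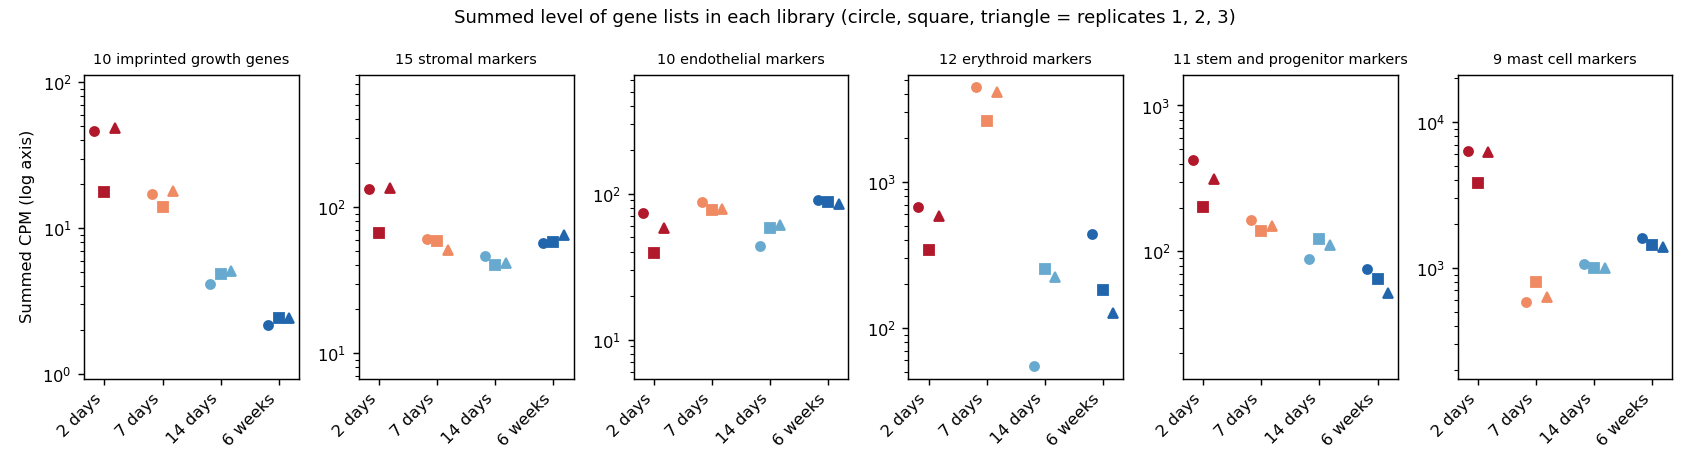
Summed CPM of 6 gene lists in each library, on logarithmic axes that differ in range; symbols are replicates 1, 2 and 3. The 10 imprinted genes sum to 17.7 to 48.5 CPM at 2 days, 14 to 18 at 7 days, 4.15 to 5.05 at 14 days and 2.17 to 2.44 at 6 weeks, while erythroid markers peak at 7 days and stromal and mast cell markers at 2 days.

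A further list of 54 genes known or reported as imprinted in mice was examined. Of these 49 were in the table under the listed symbol and 30 had enough counts to be tested. At 2 days relative to 6 weeks 13 were higher and 6 lower, with a median log2 fold change of 0.44 against 0.04 for all genes, and 63.3% were called against 40.4%. The smallest adjusted p-values were those of Mcts2, a translation factor retrogene (6.42 ± 0.752 CPM at 2 days and 1.33 ± 0.045 at 6 weeks, SD, n = 3 each), Cobl, an actin nucleator (711 counts at 2 days, 3 at 6 weeks), Axl and Ddc. Axl, a receptor tyrosine kinase gene of macrophages, was lower, at 40.3 ± 5.24 CPM at 2 days and 522 ± 33.3 CPM at 6 weeks. Likewise 10 of 12 monocyte and macrophage markers were lower at 2 days than at 6 weeks, where 19.7% of all genes were. Ddc, which encodes the decarboxylase of dopamine and serotonin synthesis and neighbours Grb10, had a log2 fold change of 5.94 (SE 0.62). It was already low at 7 days, when Grb10 had its highest mean, with 21 counts against 265 at 2 days (log2 fold change -3.75, adjusted p = 8.34e-05). At 7 days relative to 2 days 7 of the 30 were higher and 12 lower, against 22.9% and 25.8% of all genes.

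Peg10 and Rian, named after their values were seen, are set beside the members for their paths. Peg10, a retrotransposon-derived gene, was at 0.872 ± 0.185 CPM at 2 days, 2.26 ± 0.247 at 7 days, 0.254 ± 0.140 at 14 days and 0.208 ± 0.111 at 6 weeks (SD, n = 3 each). It was called higher at 7 days than at 2 days (log2 fold change 1.36, adjusted p = 0.0117), which Grb10 was not. Rian, a non-coding RNA of the Dlk1 and Meg3 region, was at 0.916 ± 0.451, 0.518 ± 0.126, 0.137 ± 0.116 and 0.310 ± 0.0905 CPM over the 4 ages, with its lowest mean at 14 days, the age of the lowest mean of Meg3.

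**Figure D5:**
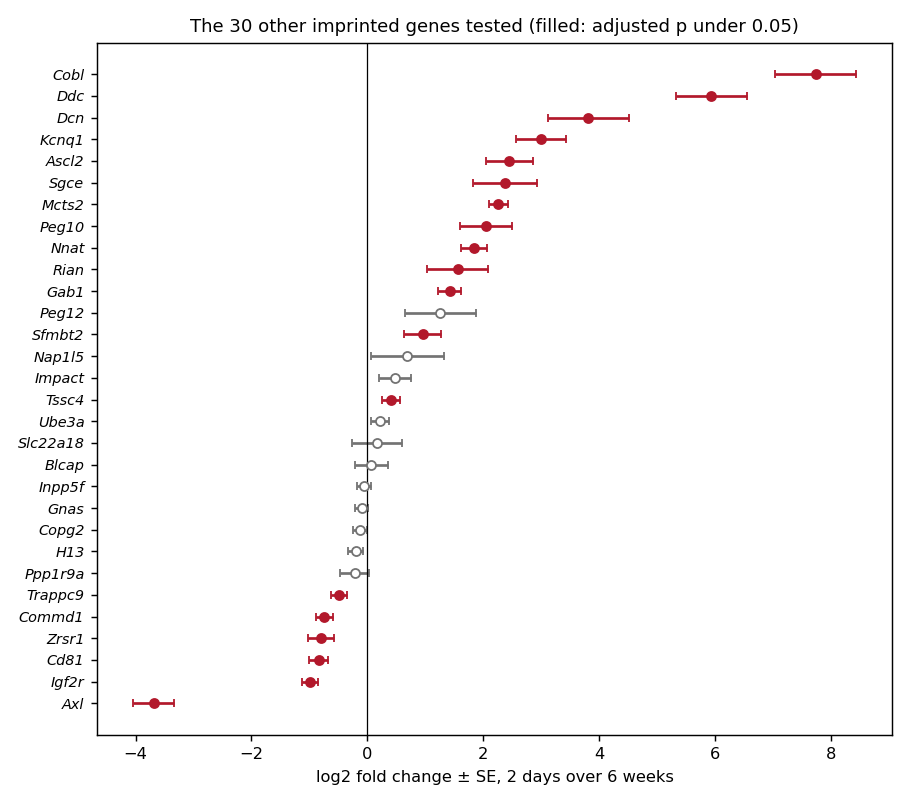
Log2 fold change of 2 days over 6 weeks with 1 SE for the 30 other imprinted genes tested; filled points passed an adjusted p of 0.05. There are 13 filled points to the right and 6 to the left of 0, from Cobl at 7.74 to Axl at -3.69.

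The receptor genes Igf1r, Igf2r and Insr were abundant at every age. Insr, the insulin receptor gene, named after its values were seen, was at 157 ± 44.1 CPM at 2 days and 83.4 ± 1.93 at 6 weeks. It was called higher at 2 days (log2 fold change 0.91, SE 0.17, adjusted p = 0.00106). Igf1r, the signalling receptor, named after its values were seen, was at 141 ± 55.6 CPM at 2 days, 98.8 ± 9.59 at 7 days, 165 ± 28.9 at 14 days and 132 ± 9.56 at 6 weeks, with no call at 2 days relative to 6 weeks (log2 fold change 0.09, adjusted p = 0.767). Igf2r, itself imprinted and a receptor that clears IGF2, was lower at 2 days (52.2 ± 9.25 CPM) than at 6 weeks (104 ± 9.17 CPM; log2 fold change -0.99, SE 0.13, adjusted p = 0.000114). It rose at 7 days relative to 2 days (log2 fold change of 7 days over 2 days 1.3, SE 0.13, adjusted p = 1.37e-05), while Igf2 fell. Igf1, the growth factor that dominates after birth, averaged 4.28 ± 0.868 CPM at 2 days and 36.8 ± 3.96 CPM at 6 weeks, a log2 fold change of -3.11 with adjusted p = 5.82e-05. Of the 15 genes of this axis tested, 7 were higher and 3 lower at 2 days relative to 6 weeks, so that 66.7% were called against 40.4% of all genes.

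Of the RNA-binding proteins named for Igf2 mRNA, Igf2bp3 was at 32.9 ± 6.66, 23.4 ± 1.81, 22.8 ± 1.03 and 0.928 ± 0.167 CPM at 2, 7 and 14 days and 6 weeks, and Igf2bp1 had 136, 63, 5 and 0 counts. At 14 days Igf2bp3 thus stood near its 7-day level (log2 fold change of 14 days over 7 days -0.04, adjusted p = 0.849), when Igf2 had 36 counts.

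Of 17 tested genes that keep or erase imprints, 6 were higher and 2 lower at 2 days relative to 6 weeks (47.1%, against 40.4% of all genes), with a median log2 fold change of 0.18. At 7 days relative to 6 weeks 10 were higher and 2 lower (70.6%, against 51% of all genes), with a median of 0.59. At 2 days relative to 6 weeks the DNA methyltransferase gene Dnmt3a was higher (0.63, SE 0.09, adjusted p = 0.000255), as was Zfp445, an imprint-protecting zinc-finger gene (0.71, SE 0.13). Smchd1, a chromatin gene that silences some imprinted clusters, was lower (-0.65, SE 0.10), as was Dnmt3l (-2.48, SE 0.41). Beside Cdkn1c, 6 of 16 cell cycle kinase partners were higher and 5 lower (68.8% called). Cdkn1a, which encodes the related inhibitor p21, was higher (1.66, SE 0.19, adjusted p = 3.52e-05), as was the cyclin gene Ccne2 (1.02, SE 0.16, adjusted p = 0.000308), while the cyclin genes Ccnd1 and Ccnd2 were lower (-2.59 and -1.26). Beside Dlk1, 5 of 12 Notch genes were higher and 2 lower (58.3% called): the ligand gene Jag2 was higher (2.01, SE 0.35) and the feedback gene Nrarp lower (-1.3, SE 0.25).

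The genes whose pattern over the 12 libraries was most like the mean standardized profile of the members were Col6a2, Ssbp2, Kri1, Gata2, Nap1l4, Ahctf1, Adk, Setd5, Pde3a and Lama5, with Pearson's r from 0.98 to 0.966 among 12474 genes. Col6a2 is also on the stromal list and Gata2 on the stem and progenitor list, which does not show the cells their transcripts came from. Without 2-day replicate 2, 3 of the 10 named remained: Gata2, Ahctf1 and Kri1. Il1rl1 then came first (r 0.991), and C3ar1, Slc18a2, Rnf8, Gnai1, Itga2b and Rab27b joined, while Col6a2 did not remain. Nearest to H19 were Gnaz, Rnf7, Snhg3, Cd163l1 and Inpp4b (r from 0.971 to 0.956), and nearest to Meg3 were the matrix genes Fbn1 (0.946) and Ltbp1 (0.911), with Slc30a1, Plekhs1 and Pcp4l1. For Grb10, ranked after its values were seen, they were Tmem132e, Slc30a10, Rbm17, C530008M17Rik and Tmem98 (0.984 to 0.98). Among the members themselves r was highest for Igf2 with Dlk1 (0.96), Grb10 with Ndn (0.94), H19 with Dlk1 (0.93), and H19 with Igf2 and Mest with Cdkn1c (0.92 each), and lowest for Mest with Meg3 (0.28). These values describe 12 points that share libraries and ages, and carry no test.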

How the data were processed

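Polyadenylated RNA of Ly6G+ spleen cells was sequenced in 12 libraries. The authors deposited 1 table of whole-number counts per Ensembl gene. RSEM 1.2.3, DESeq2 and the build mm10 are named, without roles, per the submitters' processing notes; RSEM gives estimated counts, so the counts may be rounded estimates. Strand is not stated. The aligner and annotation are not given in the sources used here. Of 38887 identifiers, 37570 were given symbols and positions from GENCODE M21 (GRCm38, the assembly of mm10).

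Counts were tested with edgeR 4.0.16 in R 4.3.3: filterByExpr with a minimum count of 10, TMM factors, 1 quasi-likelihood model over 12 libraries with age as the term, and Benjamini-Hochberg adjustment over 15494 genes, called under 0.05. Adjusted p-values in the text come from this test unless another tool is named. SE is the absolute log2 fold change over the square root of F. The members and lists were chosen with earlier results of these data known. All 10 members passed the filter, a cutoff of 0.273 CPM in 3 libraries. At 6 weeks 3 members reached it in every library, and at 2 days 9, so the others passed through younger ages, where they are high; Ndn reached it in 3 libraries, none at 14 days or 6 weeks. A level of 0 counts over an age was set to a floor of 3 counts for folds. Members were named whatever their values, and up to 4 genes of each other list by smallest adjusted p at 2 days over 6 weeks. Igf1r, Insr, Copg2, Peg10, Rian and marker genes beyond these were named after their values were seen. Alternatives were DESeq2 1.42.0, limma-voom (limma 3.58.1), other scalings, no filter, a replicate block, fits of 2 ages, and leaving out each library. The fit was tested on simulated data. No sample column of the table was left unmapped.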

Additional observations from a re-analysis of the deposited data

How the results depend on the processing

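Over 50 member comparisons and up to 20 alternatives, 991 values were computed: 930 kept direction and side of the threshold, 37 lost the call, 19 gained one and 5 changed sign or became 0. Those 5 were all of values that were not called: Meg3 at 7 days over 6 weeks (0.09, range -0.15 to 0.37 when single libraries were left out), Plagl1 at 14 days over 7 days (-0.06, range -0.26 to 0.06) and Ndn at 14 days over 6 weeks (-1.88, range -2.32 to 0). The number of members called at 2 days over 6 weeks was 10, and 8 to 10 under the alternatives. At 14 days over 6 weeks it was 2, ranging from 2 to 5 without single libraries, and 5 with 2-day replicate 2 and 14-day replicate 1 both left out, an alternative chosen after seeing the data. At 7 days over 2 days it was 8, ranging from 5 (without 2-day replicate 3) to 8 without single libraries, and 9 with limma-voom, which called Grb10 as higher. The number of all genes called at 14 days over 6 weeks was 2934, ranging from 1677 (without 6-week replicate 3) to 4685 (without 2-day replicate 2), with 1709 without 6-week replicate 1, and 4869 with both libraries left out; the cause was not tested.

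Replicate numbers did not pair the libraries: of 18 same-numbered pairs of ages, 2 had a correlation of deviations over 0.1 (range -0.221 to 0.174). With the replicate block, 9, 6, 2, 7 and 4 members were called, against 10, 6, 2, 8 and 5, at 2 days, 7 days and 14 days over 6 weeks, 7 days over 2 days and 14 days over 7 days; the calls lost were those of Meg3. The fitted log2 fold changes of Peg3 against 6 weeks and of Ndn at 14 days over 7 days, where 1 age had 0 counts, were smaller with limma-voom: 6.62 in place of 8.69 for Peg3 at 2 days and -4.44 in place of -6.53 for Ndn. Low counts limit the values at 6 weeks, where totals were not lower than at other ages: Dlk1, H19, Igf2, Ndn and Peg3 had 2, 8, 11, 1 and 0 counts over 3 libraries.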
